A study of Mus musculus with 10 samples.

Results

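The gamma crystallins were followed here in the mouse retina through 8 genes, Cryga, Crygb, Crygc, Crygd, Cryge, Crygf, Crygs and Crygn. They were taken by gene symbol, and all 8 were found among the 25905 genes of the deposited table. The animals were C57BL/6J, of wild type, and aged 34 days after birth (postnatal day 34). The right and the left retina were taken from 5 mice numbered 61, 64, 65, 66 and 68, to give 5 right and 5 left libraries. In every mouse a −20 D lens, held in a goggle, had covered one eye for 10 days from postnatal day 24, and the fellow eye had none. The study asked how the retina responds while the lens drives the eye towards myopia. The labels used here name the side of each retina but not the side of the lens, so right was compared with left and no library is called lens-treated. All mice shared the strain, the genotype, the age, and ketamine and xylazine anaesthesia when the goggle was fitted.

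Gamma crystallins are small, tightly folded water-soluble proteins that, together with alpha and beta crystallins, fill the fibre cells of the lens at very high concentration and give it its refractive power. Cryga to Crygf are near-copies of one another, are switched on in lens fibre cells, and are best known as products of the embryonic and young lens. Crygs is the more distant gamma S gene, which continues to be made in the fibres of the postnatal lens, and Crygn is the gamma N gene, whose structure lies between the beta and the gamma crystallins. Crystallin transcripts are also known in the retina, at far lower levels than in the lens, and mutations of several of these genes cause cataract in mice and people.

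On GRCm38 (mm10) the genes lie at 3 places. Cryge, Crygd, Crygc, Crygb and Cryga follow one another on the minus strand of chromosome 1 within 54.8 kb, from base 65048554 to base 65103373. Crygf lies 823 kb beyond them on the plus strand, from base 65926520 to base 65928307. Crygs lies on chromosome 16, minus strand, from base 22805203 to base 22811577, and Crygn on chromosome 5, minus strand, from base 24751003 to base 24758008. The deposited coordinates of all 8 genes matched GENCODE M21. Coding sequences of Cryga to Crygf were 79.3% to 98.1% identical in pairs, highest for Cryge with Crygf. Crygs shared 58.8% to 60.4%, and Crygn 55.9% to 59.3%, of bases with them.

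The promoters are shown because the 6 chromosome 1 genes share letters there that were not found before the RefSeq starts of Crygs and Crygn. Whether these letters bear on the levels in the retina was not tested. Each stretch is written 5′ to 3′ on the gene's strand (RefSeq, GRCm38.p6). Capitals mark matches, on that strand, of the TATA-box core TATANA and of CNTTTGTG, a T-rich stretch whose letters were chosen after the promoters had been read.
Cryga: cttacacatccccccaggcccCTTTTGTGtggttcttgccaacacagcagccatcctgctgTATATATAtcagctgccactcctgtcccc
Crygb: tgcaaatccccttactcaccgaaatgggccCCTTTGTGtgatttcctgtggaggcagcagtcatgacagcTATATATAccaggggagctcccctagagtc
Crygc: gcagcaaccctcctgcTATATAGAccagcc
Crygd: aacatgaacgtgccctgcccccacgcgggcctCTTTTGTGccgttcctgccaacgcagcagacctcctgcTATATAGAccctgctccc
Cryge: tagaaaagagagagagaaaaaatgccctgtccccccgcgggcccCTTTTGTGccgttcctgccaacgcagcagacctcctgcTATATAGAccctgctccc
Crygf: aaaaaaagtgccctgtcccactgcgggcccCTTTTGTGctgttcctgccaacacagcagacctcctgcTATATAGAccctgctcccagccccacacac
Crygs: gtttgatttgaactgccctcTATAAAtgtc
Crygn: gcaggcgccacagagTATATAccgggtctc
The stretches are chr1:65103374-65103463, chr1:65082291-65082390, chr1:65073548-65073577, chr1:65063453-65063540, chr1:65051164-65051263, chr1:65926422-65926519, chr16:22811426-22811455 and chr5:24757864-24757893 in that order, on the plus strand for Crygf and on the minus strand for the rest. They begin 100 bases before the RefSeq start, or 45 for Crygc, Crygs and Crygn. For those 3 genes 30 bases are shown, because GENCODE M21 places their start 157, 167 and 160 bases farther upstream. Bases covered by a GENCODE transcript of Cryga, Crygd or Crygf were left out.

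In all 8 genes TATANA began 18 to 39 bases before the RefSeq start, whereas 7.99% of 32851 mouse promoters hold it on that strand in their last 120 bases and 10.97% on either strand. Overlapping matches of TATANA were counted once per promoter. CNTTTGTG began 56 to 79 bases before the start of all 6 chromosome 1 genes (66 in Crygc, outside the stretch shown), on the same strand. It was not in the last 120 bases of Crygs or Crygn, and was in 1.03% of all promoters on that strand and in 2.14% on either. Since the letters of CNTTTGTG were picked from these same promoters, its place in them was known beforehand, and these shares test nothing. The MAF half-site core TGCTGAC was found, on either strand of the 250 bases before the start, in Cryga alone and in 3.81% of all promoters. Over the last 120 bases the promoters of Cryga to Crygf were 49.3% to 83.7% identical in pairs, against 43.4% to 47.4% for Crygs with them and 42.4% to 50% for Crygn with them.

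Values are CPM, in which counts are scaled to one common total per library but not divided by gene length. The listed genes summed to 321661 to 346696 CPM per library, so most of that total lay outside them. One count was worth 0.00879 to 0.0112 CPM, so 1 CPM stood for 89.7 to 113.8 counts, and the listed genes held 29690000 to 37260000 counts per library. Rod markers (11 genes) summed to 12543 to 13081 CPM in right and 12124 to 14251 CPM in left retinas. Cornea markers (7 genes) summed to at most 1.00 CPM in right and 0.928 CPM in left retinas, with 2 of them under 0.1 CPM everywhere. Skeletal muscle markers (8 genes) stood apart in the left retina of mouse 68, at 268 CPM, against 27.1 to 33.2 CPM in the other 9 libraries. Ciliary body and vitreous markers (10 genes) summed to 70.6 to 89.7 CPM in right and 66.8 to 95.3 CPM in left retinas. Fibroblast markers (10 genes) summed to 47.3 to 54.1 CPM in right and 36.4 to 52.8 CPM in left retinas, with 3 of 9 tested under 0.05 unadjusted, each higher on the right; their part in the results was not tested. The labels report a damaged raw file, with unequal numbers of forward and reverse reads, for the right retina of mouse 64. In whole tissue, fewer cells of a type and less RNA per cell cannot be told apart.

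Transcripts of all 8 genes were detected in all 10 retinas. They did not move as one family, since Crygs and Crygn parted from the rest in the right retina of mouse 65. By rank over the 10 libraries, Crygs correlated with the 6 chromosome 1 genes at 0.71 to 0.92, against 0.75 to 0.98 among the 6. Outside the right retina of mouse 65, Crygn held only 1 to 10 counts per library. Cryga, Crygb, Crygc, Crygd, Cryge and Crygf all peaked in the right retina of mouse 66 and varied together across libraries, with Crygb and Cryge steadiest as a share of their sum. Crygs and Crygn peaked in the right retina of mouse 65, where the alpha and beta crystallins peaked too. The chromosome 1 genes there were 0.692 (Crygf) to 1.69 (Crygd) times the median of the other libraries. Within mice, 7 of the 8 genes were higher in the right than in the left retina of mice 61, 65, 66 and 68 and lower in that of mouse 64, though limma called none of them between the sides. Crygn is 1 of the 7, but held equal counts in both retinas of mouse 61.

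**Figure D1:**
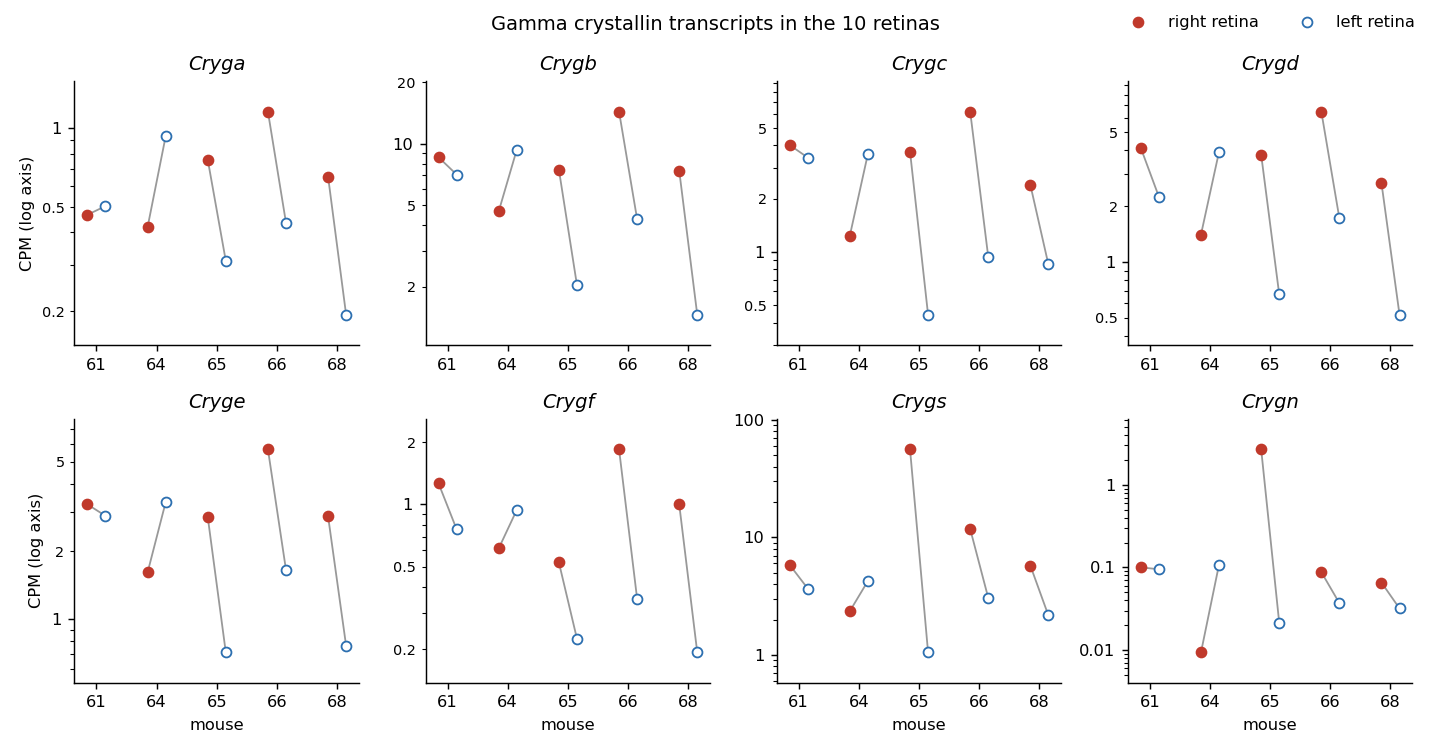
Level of each gamma crystallin (CPM, log axis) in the right (filled) and the left (open) retina of each mouse, 1 point per library with a line joining fellow retinas. The 6 chromosome 1 genes are highest in the right retina of mouse 66, whereas Crygs (56.2 CPM) and Crygn (2.70 CPM) are highest in the right retina of mouse 65.

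Crygb, the most abundant of the chromosome 1 genes, measured 8.59, 4.68, 7.47, 14.4 and 7.40 CPM in the right retinas of mice 61, 64, 65, 66 and 68, against 7.07, 9.35, 2.05, 4.29 and 1.46 CPM in the left retinas of the same mice. It was highest in the right retina of mouse 66, next in the left retina of mouse 64, and lowest in the left retinas of mice 68 and 65, and the sides overlapped. Crygc measured 4.02, 1.24, 3.69, 6.21 and 2.397 CPM in right retinas, in the same order of mice, against 3.41, 3.58, 0.444, 0.942 and 0.853 CPM in left retinas. The left retinas of mice 65, 66 and 68 lay below every right retina, and those of mice 61 and 64 lay among them.

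Crygd, whose human counterpart is a known site of congenital cataract mutations, measured 4.12, 1.41, 3.80, 6.48 and 2.67 CPM in right retinas, against 2.25, 3.93, 0.671, 1.73 and 0.521 CPM in left retinas. Cryge measured 3.23, 1.61, 2.84, 5.68 and 2.87 CPM in right retinas, against 2.88, 3.30, 0.713, 1.66 and 0.763 CPM in left retinas. Both were highest in the right retina of mouse 66 and lowest in the left retinas of mice 65 and 68, and the sides overlapped, with the left retina of mouse 64 above its right.

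Crygf and Cryga were the scarcest of the 6. Crygf measured 1.26, 0.614, 0.525, 1.85 and 1.00 CPM in right retinas, against 0.760, 0.941, 0.225, 0.352 and 0.194 CPM in left retinas. Cryga measured 0.467, 0.419, 0.758, 1.16 and 0.654 CPM in right retinas, against 0.504, 0.931, 0.311, 0.436 and 0.194 CPM in left retinas. Both again peaked in the right retina of mouse 66 and were lowest in the left retina of mouse 68, and Cryga was the one gene slightly lower in the right retina of mouse 61. Cryga overlaps the predicted gene Gm28845 on the same strand, which held at most 0.133 CPM in any library.

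Crygs measured 5.82, 2.36, 56.2, 11.8 and 5.76 CPM in right retinas, against 3.67, 4.25, 1.05, 3.06 and 2.17 CPM in left retinas. The right retina of mouse 65 stood far above all others, the right retina of mouse 66 came second, and the left retina of mouse 65 was lowest. Crygn measured 0.10, 0.00939, 2.70, 0.0879 and 0.0657 CPM in right retinas, against 0.0949, 0.108, 0.0215, 0.0370 and 0.0319 CPM in left retinas. In counts this was 242 in the right retina of mouse 65 and 1 to 10 in each of the other 9 libraries, so that Crygn was at the edge of detection outside that retina.

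Per kb of exon, which allows levels of different genes to be compared, the mean over the 10 libraries was 10.99 CPM per kb for Crygs, 10.5 for Crygb, 3.53 for Cryge, 3.41 for Crygc, 2.68 for Crygd, 1.23 for Crygf, 0.799 for Cryga and 0.406 for Crygn. The place of Crygs rested on 1 library, for without the right retina of mouse 65 it averaged 5.07 CPM per kb, below the 10.4 of Crygb. Crygn then averaged 0.0771 CPM per kb. The order of Cryge, Crygc and Crygd depended on the length used. Over all annotated exons, as above, Cryge exceeded Crygd in 10 of 10 libraries and Crygc in 5. Over the length of 1 transcript, an alternative added after the data were seen, the means were 4.50 CPM per kb for Crygd, 4.05 for Cryge and 3.42 for Crygc, and Cryge exceeded Crygd in 5 of 10 libraries.

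How reads that match several of these near-copies were shared out is not given in the sources used here. Crygs and Crygn came out as whole counts (within 0.02) in 10 of 10 libraries. Cryga did so in 4, Crygf in 3, Crygb and Crygc in 2, Crygd in 1 and Cryge in 0 libraries. Of all stretches of 50 bases in the Cryge transcript, 57.0% occur unchanged in another of the 8 genes, against 34.9% for Crygf, 34.0% for Crygd, 29.4% for Crygb, 24.0% for Crygc, 5.73% for Cryga and none for Crygs or Crygn. The division among the chromosome 1 genes is uncertain, while their sum and the values of Crygs and Crygn do not depend on how reads were split among the 8.

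That sum, of Cryga to Crygf, was 21.7, 9.97, 19.1, 35.7 and 17.0 CPM in the right retinas of mice 61, 64, 65, 66 and 68, against 16.9, 22.0, 4.41, 9.41 and 3.99 CPM in the left retinas. It spanned 8.96-fold between the right retina of mouse 66 and the left retina of mouse 68, with the sides overlapping. The shares of the more abundant genes in that sum moved less. Crygb took 42.2% ± 3.40 of it, Crygd 16.5% ± 2.48, Cryge 16.4% ± 1.36, Crygc 16.0% ± 4.14, Crygf 4.83% ± 1.05 and Cryga 4.12% ± 1.31 (SD, n = 10 libraries). The shares of Crygb and Cryge stayed within 36.7% to 46.9% and 14.9% to 19.1%, while those of Crygc ran from 10.01% to 21.4%, of Crygf from 2.75% to 6.16% and of Cryga from 2.15% to 7.06%.

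**Figure D2:**
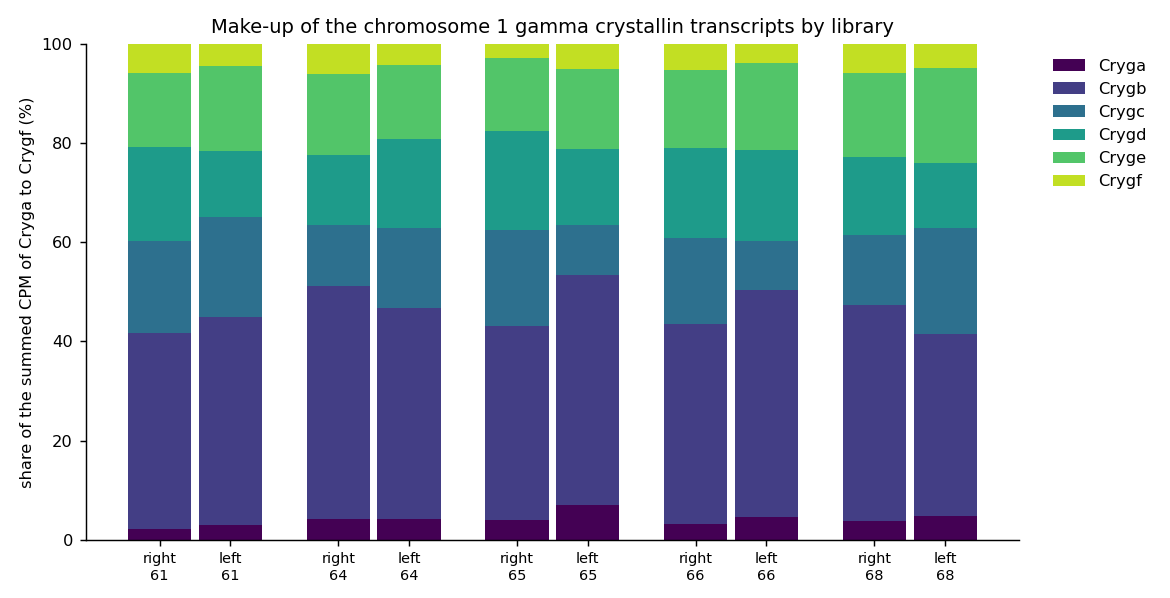
Share of each gene (%) in the summed CPM of Cryga to Crygf, 1 bar per library with the right retina left of the left retina in each mouse. Crygb takes 36.7% to 46.9% in every library although the sum itself spans 8.96-fold.

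Across the 10 libraries, log2(CPM + 1) of the 6 chromosome 1 genes correlated in pairs at Pearson r of 0.78 to 0.99, with a median of 0.91 over 15 pairs. Crygs correlated with them at 0.37 to 0.69 and Crygn at −0.08 to 0.31, whereas Crygs and Crygn correlated with each other at 0.87. By rank the gap narrowed, with Spearman correlations of 0.75 to 0.98 among the 6 genes, 0.71 to 0.92 for Crygs with them and 0.47 to 0.77 for Crygn with them. Crygs with Crygn stood at 0.81 by rank, inside the range of Crygs with the 6 genes. Outside the right retina of mouse 65, Crygn held only 1 to 10 counts per library. These values describe 10 libraries that come in pairs from 5 mice, and the chromosome 1 genes also share reads.

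The right retina of mouse 65 was where the members parted. There Crygs was 15.3 times and Crygn 41.1 times the median of the other 9 libraries, while Crygd was 1.69, Cryga 1.62, Crygc 1.54, Crygb 1.06, Cryge 0.991 and Crygf 0.692 times that median. Crygs made up 295% of the sum of Cryga to Crygf in that retina, against 19.3% to 54.4% in the other 9. Over the 5 members with a mean of at least 1 CPM, only Crygs reached 2 times the median there, and 0.317% of all 14210 genes at that level did so. In that ratio Crygs, Crygd, Crygc, Crygb and Cryge ranked 10th, 69th, 106th, 4617th and 9128th among the 14210 genes. This retina was singled out because Crygs and Crygn peaked in it, so the share and the rank of Crygs test nothing.

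The alpha and beta crystallins, 8 genes in all, moved in that retina as Crygs did. All 8 reached 2 times the median, from 9.69 times for Cryba4 to 28.6 times for Cryaa, the alpha A chaperone of the lens. Their sum reached 916 CPM there, against 9.92 to 124 CPM elsewhere. Crygs was 6.14% of that sum in the right retina of mouse 65, just under the 7.59% to 10.9% of the other 9. Cryga to Crygf together were 2.08% of it, against 14.0% to 44.5% in the other 9.

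**Figure D3:**
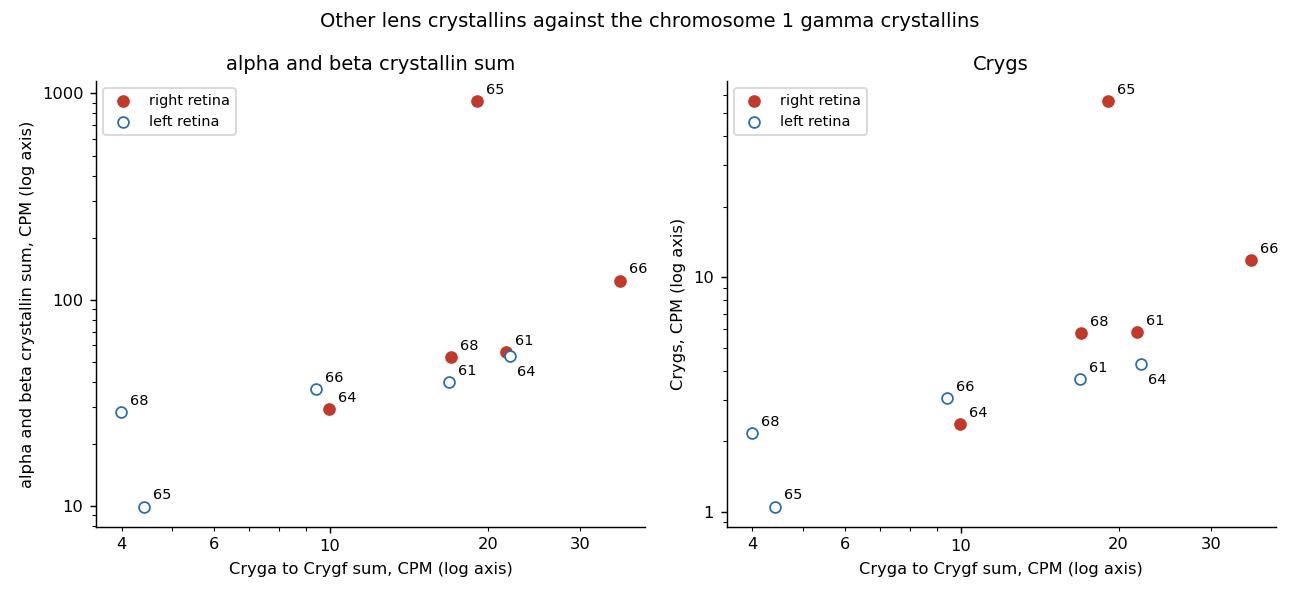
Sum of the alpha and beta crystallins (left panel) and Crygs (right panel) against the sum of Cryga to Crygf, in CPM on log axes, 1 point per library labelled by its mouse. The right retina of mouse 65 lies far above the other 9 libraries in both panels, at 916 and 56.2 CPM, while its Cryga to Crygf sum of 19.1 CPM is within their range.

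Lens fibre genes other than crystallins were split in the same retina. Of 17 listed lens fibre genes with a ratio, 8 reached 2 times the median of the other 9 libraries, and 11 of all 18 were highest there. Mip, the water channel of fibre membranes, was 62.3 times that median (23.9 CPM, against 0.15 to 2.07 CPM elsewhere) and Bfsp1, the filament protein filensin, 3.46 times. Lgsn, or lengsin, was 1.00 times the median. Of the lens epithelium markers, 5 of 11 reached 2 times the median there and 7 of 11 were highest there. Their sum was 167 CPM, against 136 to 185 CPM in the other 9, and without its 2 most abundant markers, left out after the data were seen, it was 40.96 CPM, against 18.7 to 25.5 CPM. Of the lens transcription factors 1 of 14 with a ratio reached 2 times the median, Sox1, at 0.323 CPM, and 5 of 15 were highest there. Among these were Maf, at 1.56 times the median, and Pitx3, at 0.268 CPM against at most 0.0185 CPM elsewhere. Pax6, Prox1, Sox2 and Six3, which retinal cells also express and which were picked after their values were seen, were between 1.011 and 1.053 times the median. Whether lens material in that sample had a part in these values was not tested. The counts from these lists have no share of all genes to set beside them. The 0.317% given above left out the scarcer transcripts, and some of the listed genes are among those.

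In the right retina of mouse 66 the members lay closer together. Cryga to Crygf were 2.002 to 3.01 times, Crygs 3.21 times and the alpha and beta crystallins 2.16 to 3.99 times the median of the other 9 libraries, while Crygn was 1.34 times. All 5 members with a mean of at least 1 CPM reached 2 times the median in this retina, and 0.134% of all 14210 genes did. Crygs, Crygd, Crygc, Crygb and Cryge were 5th, 9th, 13th, 18th and 19th in that ratio among the 14210 genes. This retina was singled out because the chromosome 1 genes peaked in it, so the share and the ranks test nothing. The low end was as uniform, since each of the 6 chromosome 1 genes took the lowest 2 ranks in the left retinas of mice 65 and 68, as did Crygs.

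**Figure D4:**
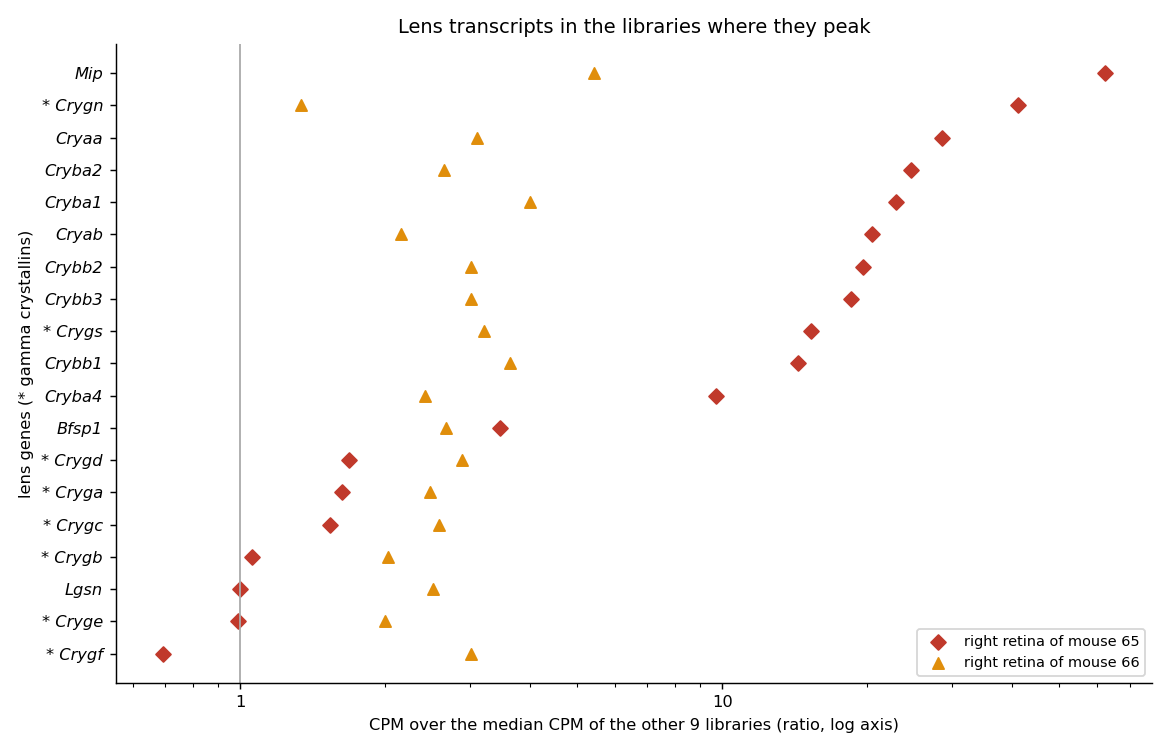
CPM in the right retina of mouse 65 (diamonds) and of mouse 66 (triangles) over the median CPM of the other 9 libraries, as a ratio on a log axis, for gamma crystallins (marked with an asterisk) and other lens genes. In mouse 66 the ratios lie between 1.34 (Crygn) and 5.41 (Mip), and in mouse 65 they run from 0.692 (Crygf) to 62.3 (Mip).

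Between fellow eyes the 5 gamma crystallins with a mean of at least 1 CPM were among the most variable transcripts at that level. Taken over the 5 mice, the difference in log2(CPM + 1) had a root mean square of 2.35 for Crygs, 1.30 for Crygb, 1.29 for Crygc, 1.23 for Crygd and 0.99 for Cryge, which ranked 5th, 19th, 20th, 23rd and 36th of 14210 genes. The median of all genes was 0.13 and the 99th percentile 0.51. The members under 1 CPM were not ranked, and stood at 0.83 for Crygn, 0.64 for Crygf and 0.43 for Cryga. That of Crygn came almost wholly from mouse 65, where it differed by 1.86, against −0.13 to 0.07 in the other mice. The chromosome 1 genes were 2.33 to 8.32 times as high in the right as in the left retina of mouse 65, 2.66 to 6.60 times in mouse 66 and 2.81 to 5.18 times in mouse 68. In mouse 61 they were 0.926 to 1.83 times, and in mouse 64 0.346 to 0.652 times, as high on the right.

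Crygs was 53.5 times as high in the right as in the left retina of mouse 65, 3.85 times in mouse 66, 2.65 times in mouse 68, 1.59 times in mouse 61 and 0.554 times in mouse 64. Within each mouse it thus went the way of the chromosome 1 genes, and only in mouse 65 lay far outside their range. The order of signs over the 5 mice, higher on the right in all but mouse 64, was shared by 5 of 5 members at a mean of at least 1 CPM and by 7 of all 8, Cryga being the exception. Crygn adds little to that count, with 9 counts in each retina of mouse 61 and 6 against 3 in mouse 68, so that its sign in mouse 61 came from the library totals alone. Of all 14210 genes, 3.32% had that order of signs. Since the order was read from these same members, this share tests nothing.

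**Figure D5:**
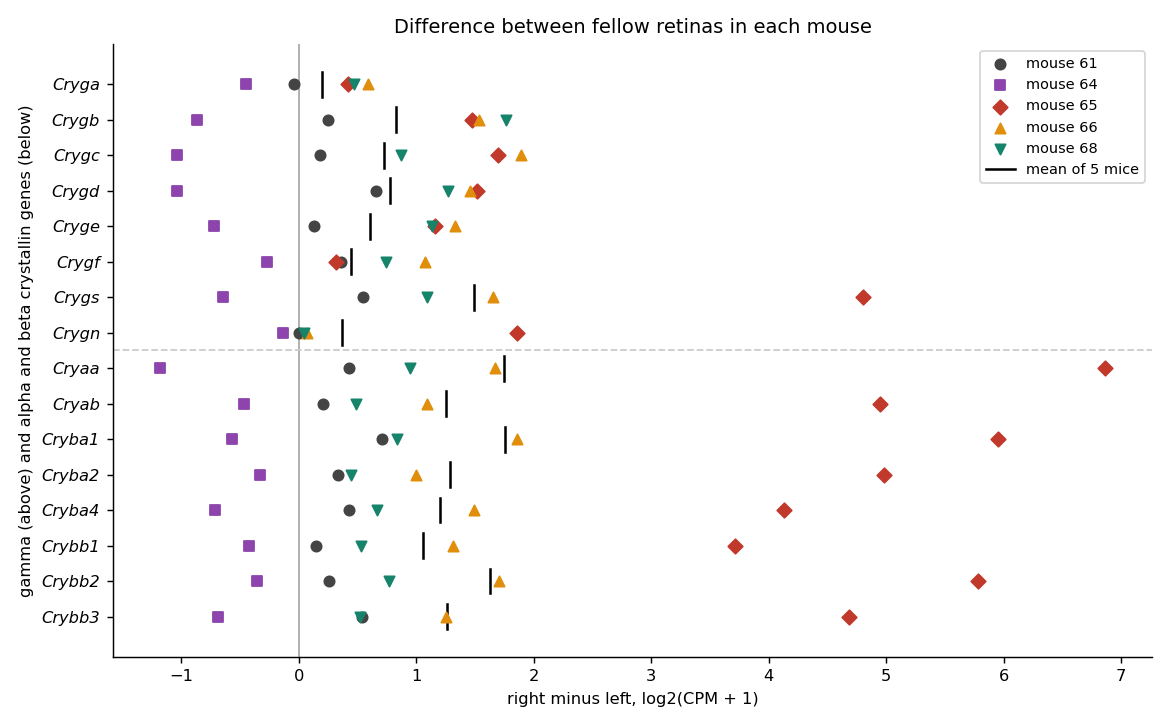
Right minus left in log2(CPM + 1) for each gamma crystallin (upper 8) and each alpha and beta crystallin (lower 8), 1 symbol per mouse and a bar at the mean of the 5 mice. Mouse 64 lies below 0 for every gene, and mouse 65 stands apart at 4.80 for Crygs, as it does for the alpha and beta crystallins, but lies with mice 66 and 68 for Crygb to Cryge.

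Right against left was tested with limma on log2(CPM + 1) with the mouse as a block. Crygs averaged 16.4 ± 22.5 CPM in right and 2.84 ± 1.26 CPM in left retinas (SD, n = 5 each), which is 1.49 higher on the right on the log2 scale (SE 0.58, 95% interval 0.19 to 2.79). Crygb averaged 8.499 ± 3.58 CPM in right and 4.84 ± 3.35 CPM in left retinas, which is 0.83 higher (SE 0.32, 95% interval 0.11 to 1.55). Differences were 0.77 for Crygd (95% interval 0.08 to 1.47), 0.72 for Crygc (−0.05 to 1.496) and 0.61 for Cryge (0.03 to 1.18). None of the 5 passed (limma, Benjamini-Hochberg adjusted p = 0.9996 for each, over 14210 genes). Before that adjustment, the 95% intervals of Crygs, Crygb, Crygd and Cryge lay wholly on the side of higher in right retinas. That of Crygc did not.

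Limma called 0 of 14210 genes (0%) at an adjusted p under 0.05, and 333 had an unadjusted p under 0.05. With voom weights it called 0 too, and 336 were under 0.05 unadjusted. Unadjusted, 4 of the 5 tested members were under 0.05, each higher on the right, against 218 of all genes (1.53%), and their median difference was 0.77 against 0.00 for all tested genes. Cryga (0.20), Crygf (0.45) and Crygn (0.37) lay under the level of 1 CPM. They were fitted with no gene left out and at a mean of at least 0.1 CPM, and none passed in either (limma adjusted p of 0.9996 and 0.9997). The difference of Crygs fell to 0.66 without mouse 65 and was 2.02 without mouse 64. Without mouse 64 that of Crygc was 1.16, of Crygb 1.26, of Crygd 1.23 and of Cryge 0.94, and the lowest adjusted p was 0.0669, for Crygd (limma). Without mouse 66 the difference of Crygc was 0.43.

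None of the 5 members differed between mice in the F-test of the same fit (limma adjusted p of 0.543 to 0.768, lowest unadjusted p of 0.245), in which 81 of 14210 genes (0.57%) passed.

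The alpha crystallins Cryaa and Cryab differed by 1.75 (SE 0.87) and 1.25 (SE 0.61) between right and left, and the beta crystallins Cryba1, Crybb2 and Cryba4 by 1.76, 1.63 and 1.20. These means rested largely on mouse 65, where the differences were 6.86, 4.95, 5.95, 5.78 and 4.13 in that order. In the other mice they ran from −1.18 to 1.86. Of the 6 beta crystallins 4 had an unadjusted p under 0.05, of the 2 alpha crystallins none, and none of the 8 passed. Of 9 lens fibre genes tested, Bfsp1 (0.62, SE 0.18) and Slc7a11, a cystine transporter (0.55, SE 0.22), were under 0.05 unadjusted, and Mip differed by 0.94. The difference of Mip was 4.43 in mouse 65 and −0.17 to 0.23 in the other mice. Bfsp1 and Mip reached the mean of 1 CPM needed for testing only through the right retina of mouse 65. Of 11 lens transcription factors tested, Maf, a regulator of crystallin genes, was higher on the right in 5 of 5 mice (0.29, SE 0.09), Pknox1 differed by 0.07 and Tfap2a by 0.10, and none passed (limma adjusted p = 0.9996). Of 3 relatives outside the lens only Crybg3 was tested, and it differed by −0.01.

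Genes most like the sum of all 8 gamma crystallins over the 10 libraries, by Pearson r of log2(CPM + 1), were Thap6 (0.96), Brwd1 (0.94), Bfsp1 (0.93), Cryba4 (0.93), Trf (0.92), Rpe65 (0.91), Cryaa (0.90) and Fbxl17 (0.90). The list rested in part on Crygs, which was 72.1% of that sum in the right retina of mouse 65. Bfsp1 reached the mean of 1 CPM needed for this comparison only through that retina. Against the sum of Cryga to Crygf alone, Cryaa stood at 0.62, Cryba4 at 0.67 and Bfsp1 at 0.75, and the most like genes were Cadps2 (0.94), Hbp1 (0.93) and Gnaq (0.91). Some of the genes most like the sum of all 8 hardly varied. Brwd1 ran from 126 to 130 CPM in right and from 124 to 128 CPM in left retinas, and Thap6 from 2.19 to 2.69 CPM in right and from 2.05 to 2.38 CPM in left retinas. Rpe65, an enzyme of the pigment epithelium, ran from 1.39 to 3.0003 CPM in right and from 1.35 to 2.44 CPM in left retinas. The sum of 13 pigment epithelium markers was 159 to 170 CPM in right and 156 to 167 CPM in left retinas, of which 1 marker made up 76.7% to 87.7%. The other 12 summed to 22.7 to 36.2 CPM in right and 20.5 to 38.9 CPM in left retinas. Of the 13, 4 were highest in the right retina of mouse 65, Rpe65 among them, with no share of all genes to set beside this. None of the 13 pigment epithelium markers reached 2 times the median there. Whether such cells had a part in the likeness was not tested.

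Taken singly, the members had different nearest genes. Crygs was most like Cryba1, Cryba4 and Crybb2, at r of 0.99 each, and without the right retina of mouse 65 at 0.98, 0.97 and 0.97. Crygb was most like Cadps2 (0.94), Gnaq (0.92) and Hbp1 (0.92), Crygc like Mob1a (0.95), Amotl1 (0.91) and Gpx1 (0.90), Crygd like Cadps2 (0.94), Rcor1 (0.92) and Hbp1 (0.90), and Cryge like Hbp1 (0.96), Cadps2 (0.96) and Rcor1 (0.90). Crygb correlated with the 8 alpha and beta crystallins at 0.41 to 0.62 over 10 libraries and at 0.77 to 0.91 without the right retina of mouse 65. All of these rest on the same 10 libraries, with the highest values picked from 14210 genes.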

How the data were processed

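Total RNA of 10 mouse retinas, depleted of ribosomal RNA, was sequenced with a strand-specific kit, per the labels' protocols. Per the submitters' processing notes, STAR, Partek and GRCm38 (mm10) were used. Software versions, read counting and filtering were not given in the sources used here. Values in the deposited table are CPM, as judged from their steps, and the 0.0001 added to each was taken off. The smallest step of the values gave the depth. Of values up to 20 counts, 90.6% to 91.7% were whole within 0.1, too few for a count test.

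Right minus left was fitted on log2(CPM + 1) with limma 3.58.1 (R 4.3.3), mouse as block, a variance trend, and two-sided p-values adjusted by Benjamini-Hochberg over 14210 genes averaging at least 1 CPM. P-values of right minus left rest on how the difference between fellow retinas varied over these 5 mice. The F-test between mice is set against that same variation. Fellow retinas come from the same animal, and their deviations correlated at 0.143 to 0.607. The script was tested on simulated data. Alternatives were other pseudocounts, filters and scaling, voom weights, no block, no trend, and each mouse left out.

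Members and lists were chosen with earlier results of these data known. Named besides the members are 5 set lens genes, up to 3 genes of lowest p in a list, 8 genes most like the family sum, and 3 per tested member. Lgsn, Sox1, Pitx3, Pax6, Prox1, Sox2 and Six3 were named after their values were seen. Of the list genes, 5 had no row matched by symbol. A few list genes are counted but not reported here by name. Promoters come from RefSeq; all 8 members matched.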

Additional observations from a re-analysis of the deposited data

Results flagged for a closer look

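Among the right retinas, mouse 65 stood apart from the other 4 for Crygs, at 56.2 CPM against 11.8 CPM in the next retina, a gap that was 0.825 of the whole range. The same library stood apart for Crygn, at 2.70 CPM against 0.10 CPM in the next, a gap of 0.966 of the range. Dixon's 95% critical value for 5 samples is 0.71. It was applied to 20 groups of 5 libraries, and about 1 in 20 groups passes it by chance. The 6 chromosome 1 genes did not pass it in either group of retinas.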

How the results depend on the processing

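No gene was called between right and left under any alternative tried, and the differences of the 5 tested members kept their direction under all of them. Cryga, Crygf and Crygn were fitted under the 2 other filters alone. The fit without the replicate block (mouse) also called 0 genes, with 188 against 333 at an unadjusted p under 0.05. With no filter 856 genes, and at a mean of at least 0.1 CPM 554 genes, were under 0.05 unadjusted, of 25905 and 19893 tested. With each mouse left out, the difference ran from 0.60 to 1.26 for Crygb, 0.43 to 1.16 for Crygc, 0.59 to 1.23 for Crygd, 0.43 to 0.94 for Cryge and 0.66 to 2.02 for Crygs, and that of the summed family from 0.73 to 1.90, against 1.31 with all mice and 0.97 without Crygs and Crygn. Pseudocounts of 0.1 and 5 CPM gave 1.11 and 0.31 for Crygc and 1.74 and 0.99 for Crygs, and voom weights 2.25 for Crygs. The count of genes differing between mice was 81, against 36 with no variance trend and 23 to 88 with a mouse left out; the cause was not tested. Crygn, at 1 to 10 counts outside 1 retina, is limited by depth.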
